A study of Mus musculus with 15 samples.

Results

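Striatum of mouse pups exposed before birth to paraquat was compared directly with striatum of pups exposed before birth to titanium dioxide (TiO2) nanoparticles, without using the control libraries in the contrast. The libraries were chosen by their labels: 3 paraquat and 4 TiO2 libraries, 7 of the 15 in the series. The other libraries are 4 controls and 4 that received both agents as a mixture, and their levels are given as a reference. They do not enter the contrast, but the fit estimates the spread between libraries from all 15. All groups are C57Bl/6J pups sampled at postnatal day 14, whose dams had inhaled the aerosol while pregnant, and all libraries were made from total RNA of the striatum. No transgene or deletion is named in the labels. They give no dose, exposure days, dam, litter, sex or batch and do not state that each library is a different pup. The p-values therefore reflect the spread between libraries of this series alone, part of which may be technical. The question addressed is whether the 2 single exposures left different transcript levels in the developing striatum.

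Paraquat is a herbicide that takes electrons from cellular reductases and passes them to oxygen, which yields superoxide, and it is known as an agent that harms dopamine neurons. TiO2 nanoparticles are poorly soluble mineral particles that can be inhaled and are studied for particle-driven inflammation. The striatum is the input nucleus of the basal ganglia: its projection neurons carry D1 dopamine receptors in the direct pathway or D2 receptors in the indirect pathway and receive glutamate from cortex and thalamus, and its fibre bundles acquire myelin in the weeks after birth.

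By reads recovered from the values, the 7 compared libraries held 8911693 to 14207513 reads in the genes of the table, with paraquat 3 the deepest. The recovery is uncertain for paraquat 1, TiO2 3 and TiO2 4. Levels below are the deposited normalised read counts, which are not divided by gene length and so compare 1 gene across libraries. Differences are log2(value + 1) of paraquat minus TiO2 with the standard error (SE) of the fit. The labelled tissue matched its markers. Drd1, the D1 receptor gene, was at 2614 to 2705 in paraquat and 2719 to 3157 in TiO2, Ppp1r1b, which encodes the striatal phosphatase regulator DARPP-32, at 8999 to 12262 and 9176 to 11828, and Penk, the indirect-pathway enkephalin precursor, at 12768 to 15541 and 13352 to 15828. Xist, which coats the inactive X, was at 22301 to 24096 in paraquat 2, TiO2 1 and TiO2 2 and at 76.3 or less in the other 4 libraries, while the Y-linked gene Kdm5d was at 246 to 279 in those 4 and at 0 in the 3. Mitochondrial transcripts held 17.8% ± 0.911 (SD, n = 3) of the signal in paraquat and 18.9% ± 1.87 (n = 4) in TiO2 (exact two-sided permutation p = 0.343, adjusted p = 0.686 over 2 measures). The smallest p that 3 against 4 libraries allow is 0.0571.

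In the limma fit no gene separated the 2 exposures after correction over all genes. It called 0 of 15556 genes (0.00%) at a Benjamini-Hochberg adjusted p under 0.05, and the smallest adjusted p was 0.119. At an unadjusted p under 0.05 there were 997 genes (6.41%), 534 higher in paraquat (3.43%) and 463 lower (2.98%). Their median transcript GC content was 52.8% on the higher side and 49.0% on the lower, against 50.2% for all genes tested. A limma fit of the paraquat and TiO2 libraries alone also called 0 genes (smallest adjusted p 0.152), with 896 at an unadjusted p under 0.05. In 904 genes (5.81%) all 3 paraquat values lay outside the range of the 4 TiO2 values, 458 above it (2.94%) and 446 below it (2.87%). On whole reads recovered from the values (a recovery that is uncertain for 4 of the 15 libraries), the edgeR quasi-likelihood test and voom also called 0 genes, and the DESeq2 Wald test called 15, 10 higher and 5 lower in paraquat. Of those 15, 14 are among the 20 genes described below, the 10 in each direction with the smallest limma p at a mean of at least 10, and the other is Igfbp5, an insulin-like growth factor binding protein gene, at 1994 to 2463 in paraquat and 1569 to 1817 in TiO2 (0.34 ± 0.09, limma adjusted p = 0.354).

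The interval of each difference says how far this result reaches. For 14661 genes (94.2%) the 95% interval lay within a 2-fold difference in either direction, and its median half-width was 0.27 on the log2 scale. A further set of 40 genes had an estimate more than 2-fold higher in paraquat and 7 more than 2-fold lower. Their median level was 18.6 against 161 for all genes tested, and Xist and the Y-linked genes Kdm5d and Uty are among them. The middle 90% of genes ran from −0.27 to 0.35 with a median of 0.00. Over genes with a mean of at least 50, the root-mean-square log2 difference between a paraquat and a TiO2 library was 0.212 to 0.331 (median 0.288, 12 pairs). It was 0.207 to 0.321 within TiO2 (median 0.282, 6 pairs) and 0.264 to 0.344 within paraquat (median 0.282, 3 pairs), so the range between exposures lay within the ranges found inside an exposure.

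**Figure D1:**
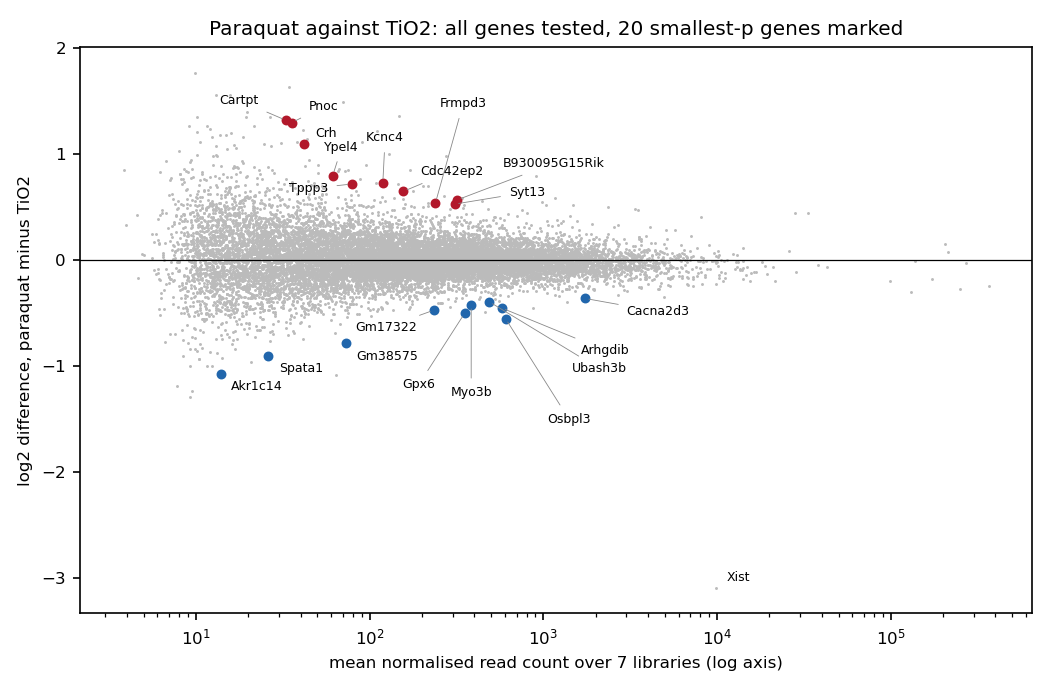
Log2 difference of paraquat minus TiO2 (vertical axis) against the mean normalised read count over the 7 libraries (horizontal log axis) for each of the 15556 genes tested. The 10 genes in each direction with the smallest p at a mean of at least 10 are coloured, red where higher in paraquat and blue where lower, and none passed the adjusted threshold. The point near −3.09 is Xist, which was high in 3 of the 7 libraries.

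The genes with the smallest p among those higher in paraquat included 3 neuropeptide precursors. Cartpt, precursor of the CART peptides, was at 57.6, 53.8 and 41.5 in paraquat 1 to 3 and at 21.8, 18.3, 16.1 and 22.9 in TiO2 1 to 4 (difference 1.32 ± 0.26, limma adjusted p = 0.119). Crh, which encodes corticotropin-releasing hormone, was at 44.7, 53.8 and 85.6 against 24.9, 37.6, 23.1 and 24.9 (1.10 ± 0.22, adjusted p = 0.14). Pnoc, precursor of nociceptin, was at 77.4, 41.6 and 45.4 against 22.8, 28.5, 18.1 and 15.9 (1.30 ± 0.27, adjusted p = 0.14). For each of the 3 genes every paraquat library lay above every TiO2 library, and TiO2 2 was the highest TiO2 library for Crh and Pnoc. The DESeq2 test called all 3, with adjusted p of 0.00872 for Cartpt, 0.0142 for Crh and 0.00872 for Pnoc. Over all alternatives tried, the adjusted p ran from 0.00872 to 0.5 for Cartpt, 0.0142 to 0.439 for Crh and 0.00872 to 0.607 for Pnoc. Control means were 18.9 for Cartpt, 30 for Crh and 17.2 for Pnoc, and mixture means were 24.2, 45.4 and 31.6, all below the lowest paraquat library except Crh in the mixture.

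The Kv3 potassium channels, which let neurons fire at high rates, gave the next values. Kcnc4, the Kv3.4 subunit gene, was at 130, 157 and 174 in the paraquat libraries and at 77.8, 105, 99.3 and 86.5 in the TiO2 libraries (0.73 ± 0.15, limma adjusted p = 0.141). Kcnc2, the Kv3.2 subunit gene, was at 262, 410 and 471 against 114, 225, 194 and 243 (0.98 ± 0.23, adjusted p = 0.397). The groups did not overlap for either gene, although for Kcnc2 paraquat 1 lay near TiO2 4, and TiO2 1 was the lowest library for both. The difference for Kcnc1, the Kv3.1 subunit gene, was smaller at 0.19 (95% interval 0.01 to 0.37). Of 25 voltage-gated potassium channel genes tested, 3 were higher in paraquat at an unadjusted p under 0.05 (3.43% of all genes were) and none was lower (2.98% of all genes), and the list median was 0.08 against 0.00 for all genes.

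The remaining genes with the smallest p on the higher side have varied roles. B930095G15Rik had the smallest p of all genes: it was at 364, 439 and 374 in paraquat and 224, 259, 310 and 263 in TiO2 (0.57 ± 0.11, limma adjusted p = 0.119). It is a noncoding transcript annotated inside Farp1, on the same strand, at 121248706 to 121253971 on chromosome 14 (GRCm38), so its reads cannot be told apart from unspliced Farp1 RNA. Farp1 itself was at 346 to 382 against 266 to 338 (0.25 ± 0.10, adjusted p = 0.7). Ypel4 was at 84.4, 67 and 92.8 against 36.3, 46.8, 49.2 and 52.7 (0.80 ± 0.17, adjusted p = 0.17). Tppp3, a tubulin polymerisation-promoting protein gene, was at 92.3 to 111 against 50.7 to 80.3 (0.72 ± 0.16). Frmpd3 was at 279 to 303 against 167 to 250 (0.54 ± 0.12), and the synaptotagmin gene Syt13 at 333 to 422 against 222 to 301 (0.53 ± 0.12). Cdc42ep2, an effector of the GTPase Cdc42, was the exception to the separation of groups, with paraquat 2 at 154 below TiO2 3 at 156 (0.65 ± 0.15). Ypel4, Tppp3, Frmpd3, Syt13 and Cdc42ep2 had limma adjusted p of 0.17 to 0.208.

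**Figure D2:**
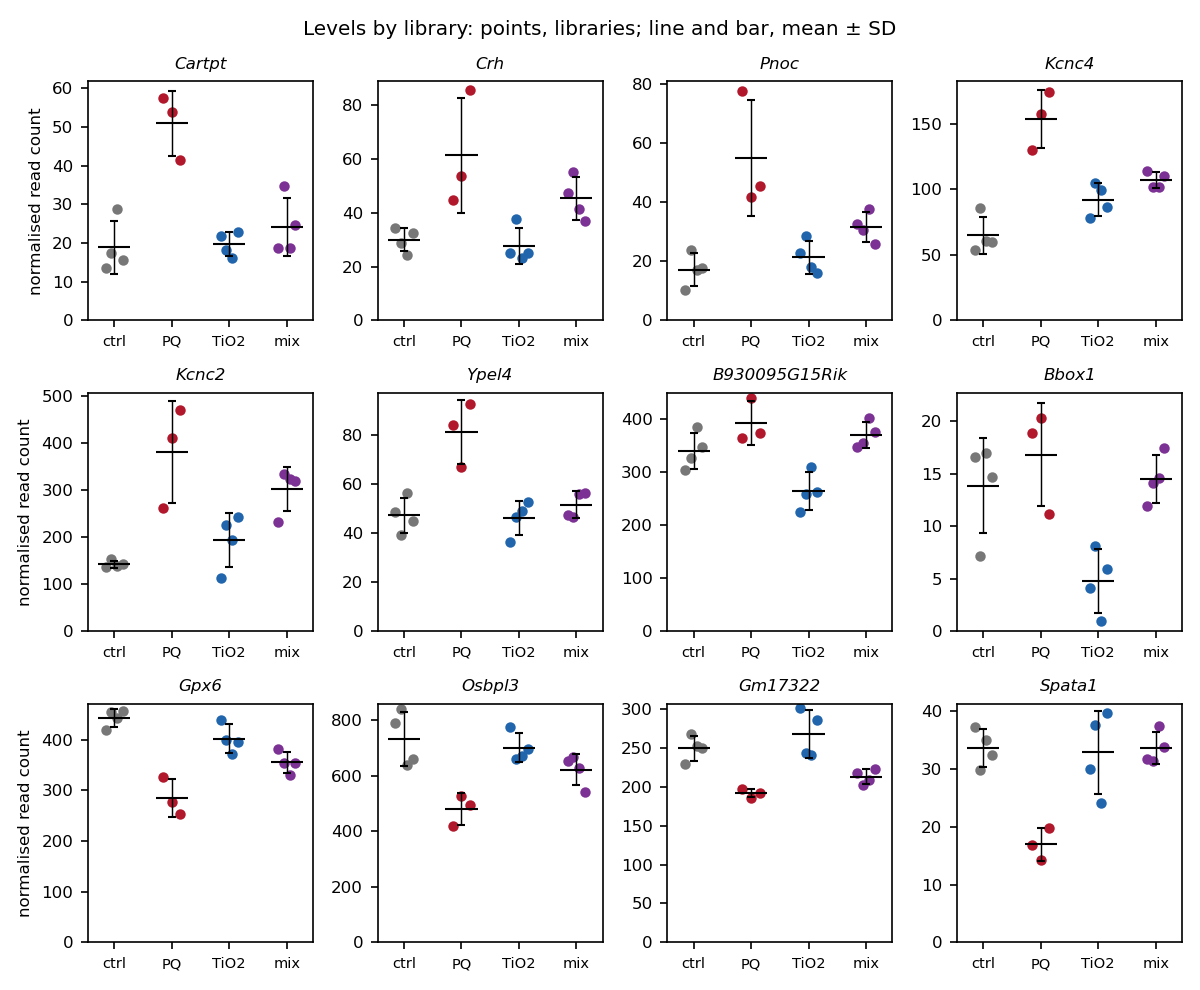
Normalised read count (vertical axis) of 12 genes in control (ctrl), paraquat (PQ), TiO2 and mixture (mix) libraries. Points are libraries, and the line and bar are the mean ± SD. For Cartpt the paraquat libraries sit between 41.5 and 57.6, above the TiO2 range of 16.1 to 22.9, and for Osbpl3 between 418 and 528, below 659 to 774.

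On the side lower in paraquat, the smallest p belonged to Gpx6 and Osbpl3. Gpx6, a glutathione peroxidase gene on chromosome 13 at 21312125 to 21319624, was at 327, 277 and 253 in paraquat and at 440, 400, 372 and 396 in TiO2 (−0.50 ± 0.09, limma adjusted p = 0.119). Osbpl3, an oxysterol-binding protein gene on chromosome 6 at 50293330 to 50456201, was at 418, 528 and 494 against 774, 659, 670 and 695 (−0.55 ± 0.11, adjusted p = 0.119). Both lay below all 4 TiO2 libraries in all 3 paraquat libraries, and their control means of 443 for Gpx6 and 731 for Osbpl3 lay within or above the TiO2 range. DESeq2 called both, with adjusted p of 0.00856 for Gpx6 and 0.0086 for Osbpl3. The range over all alternatives was 0.00856 to 0.419 for Gpx6 and 0.0086 to 0.5 for Osbpl3.

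Noncoding transcripts made up part of the lower side. Gm17322, a long intergenic noncoding RNA, was at 186 to 197 against 240 to 301 (−0.47 ± 0.10, limma adjusted p = 0.16). Its annotation overlaps Cyp11a1 on the same strand, so reads in the overlap cannot be assigned to either. Gm38575, a processed transcript, was at 46.7 to 54.6 against 67.2 to 128 (−0.78 ± 0.17, adjusted p = 0.188). TiO2 1 was the highest library for both transcripts.

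Of the protein-coding genes on the lower side, Myo3b, an unconventional myosin gene, was at 314 to 327 in paraquat and 385 to 495 in TiO2 (−0.42 ± 0.10, limma adjusted p = 0.208). Cacna2d3, an auxiliary calcium channel subunit gene, was at 1442, 1411 and 1605 against 1998, 2000, 1618 and 2051 (−0.36 ± 0.09, adjusted p = 0.358). In Cacna2d3 the groups separated narrowly, because TiO2 3 at 1618 lay near paraquat 3. Arhgdib, a GDP-dissociation inhibitor gene, was at 420 to 564 against 623 to 661 (−0.45 ± 0.11, adjusted p = 0.351), and Ubash3b at 372 to 480 against 538 to 545 (−0.39 ± 0.10, adjusted p = 0.397). Akr1c14 was at 7.1 to 9.92 against 15.1 to 24.9 (−1.07 ± 0.27, adjusted p = 0.358), and it belongs to a family of close copies between which reads may be split. Over the 20 named genes, 9 were above and 10 were below all TiO2 libraries, a count that follows from choosing them by this contrast.

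Myelin genes had higher estimates in paraquat throughout the list. Of 18 oligodendrocyte and myelin genes tested, all 18 estimates were above 0, from 0.26 to 0.80 with a median of 0.45 against 0.00 for all genes. None passed the adjusted threshold. An unadjusted p under 0.05 with paraquat higher was found for 10 of the 18, against 3.43% of all genes, and 9 lay above all 4 TiO2 libraries, against 2.94%. These genes are expressed together in 1 cell type, so they are not 18 separate observations. The summed level of the list was 98162 to 113002 in the 3 paraquat libraries and 61423 to 95818 in the 4 TiO2 libraries. It was 45310 to 67614 in control and 53498 to 91070 in the mixture.

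The TiO2 libraries themselves were split over myelin. Mbp, which encodes myelin basic protein, was at 39069, 37841 and 40417 in paraquat 1 to 3 and at 23532, 32770, 37750 and 23347 in TiO2 1 to 4 (0.45 ± 0.22, limma adjusted p = 0.804). TiO2 1 and 4 were the lowest libraries, while TiO2 3 came just under the lowest paraquat library. The same pair was lowest for Mog (myelin oligodendrocyte glycoprotein), which was at 1352 to 1538 in paraquat and at 743, 1095, 1270 and 756 in TiO2 1 to 4 (0.59 ± 0.27). Mal was at 1106 to 1273 against 527, 837, 897 and 525 (0.80 ± 0.34), and Cldn11, the claudin of myelin tight junctions, at 2686 to 2862 against 1608, 2308, 2566 and 1587 (0.50 ± 0.19). Tspan2, a tetraspanin of oligodendrocytes, had the smallest p of the list, at 3785 to 4391 against 2605 to 3375 (0.47 ± 0.13, adjusted p = 0.417). In other members the ranges met: Mag was at 1640 to 1864 against 909 to 1849, Cnp at 2783 to 3175 against 1927 to 3293, and Myrf, the transcription factor of myelination, at 473 to 641 against 366 to 577. The list median was 0.39 without TiO2 1 and 0.38 without TiO2 4. In whole tissue, fewer cells of a type and less RNA per cell cannot be told apart.

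**Figure D3:**
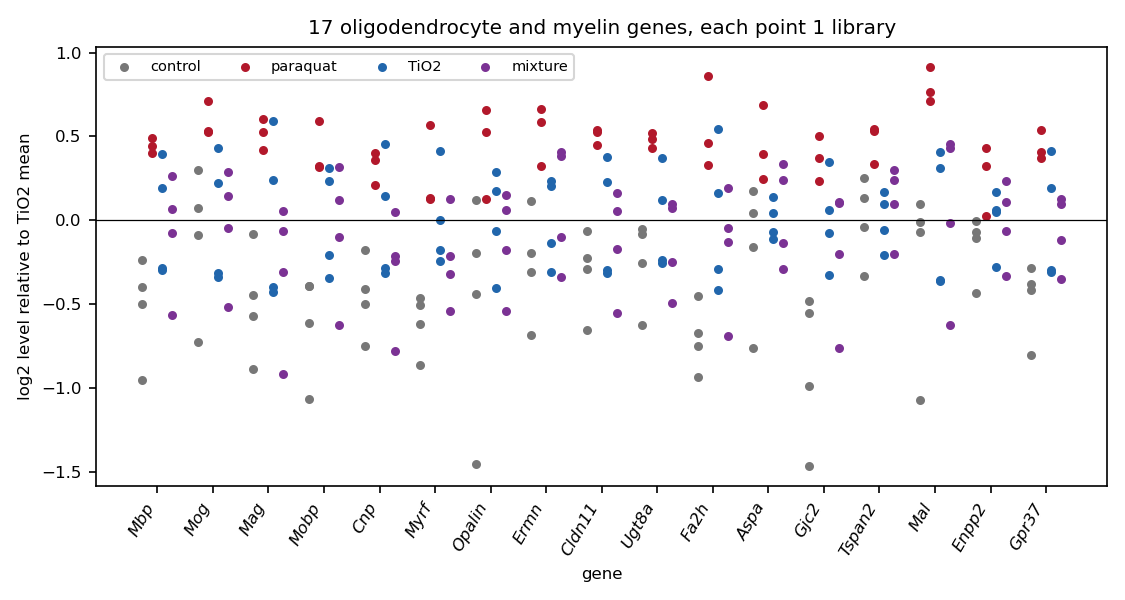
Level of 17 oligodendrocyte and myelin genes in each library, as log2(value + 1) minus the TiO2 mean of that gene (vertical axis), with 1 point per library coloured by group. Paraquat points lie above most TiO2 points, and TiO2 points spread into a pair of higher and a pair of lower libraries for genes such as Mbp, at 32770 and 37750 against 23347 and 23532.

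Other glia had medians near 0. The astrocyte list had a median of −0.01 over 15 genes. In it 2 genes were higher in paraquat at an unadjusted p under 0.05, against 3.43% of all genes. Gfap, the astrocyte filament gene, was at 445 to 478 against 297 to 427 (0.29 ± 0.13, limma adjusted p = 0.718). The transcription factor gene Sox9 was at 641 to 725 against 505 to 641 (0.23 ± 0.11, adjusted p = 0.761). The oligodendrocyte precursor list had a median of 0.04 over 12 genes, and the microglia list −0.04 over 16 genes with none at an unadjusted p under 0.05. Endothelial and pericyte genes had a median of −0.07 over 14 genes.

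Genes of ependyma and motile cilia, the ventricle lining next to the striatum, had the largest list median. All 9 tested genes had higher estimates in paraquat, from 0.17 to 1.27 with a median of 0.75. None passed the adjusted threshold, 5 were higher at an unadjusted p under 0.05 (3.43% of all genes) and 2 lay above all TiO2 libraries (2.94% of all genes). Foxj1, the master transcription factor of motile cilia, was at 81.4, 54.8 and 37.5 in paraquat and at 25.9, 31.5, 45.2 and 19.9 in TiO2 (0.89 ± 0.28, limma adjusted p = 0.561). Paraquat 3 lay inside the TiO2 range for this gene. Tekt1, a ciliary tektin gene, was at 14.5 to 15.9 against 7.96 to 10.4, and Hydin, a gene of the ciliary axoneme, at 50.6, 41.6 and 22.4 against 27, 21.4, 20.1 and 13.9. The summed level of the list was 153 to 313 in paraquat and 88.5 to 162 in TiO2, so these are low counts. It was 79.5 to 221 in control and 173 to 234 in the mixture, and both of these ranges overlapped that of paraquat. Of 9 choroid plexus genes listed, 4 were tested. Their estimates were 0.03 for Kl, 0.09 for Clic6, 1.23 for Ttr and 1.27 for Prlr, so none lay near the list median of 0.66. Of the 4, only Prlr was higher in paraquat at an unadjusted p under 0.05 (3.43% of all genes were). Prlr was at 51.6, 11.2 and 42.8 in paraquat and 10.4 to 13.9 in TiO2, so paraquat 2 lay inside the TiO2 range. Clic6 was at 95.4 to 110 against 84.3 to 105. Ttr, the transthyretin gene that is very abundant in choroid plexus, was at 40.7, 14.2 and 144 in paraquat and at 5.19 to 40.1 in TiO2 (1.23 ± 1.32), and Kl at 19.3 to 46.1 against 24.1 to 39.4.

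Neurons of other regions also varied between libraries. The cortical glutamatergic list had a median of 0.29 over 12 genes. At an unadjusted p under 0.05, 3 of them were higher in paraquat, against 3.43% of all genes, and none was lower. Slc17a7, the cortical vesicular glutamate transporter gene, was at 609, 2703 and 736 in paraquat and at 418, 703, 1201 and 863 in TiO2 (0.52 ± 0.55). Tbr1, a cortical transcription factor gene, was at 301, 1161 and 279 against 157, 293, 520 and 401. Paraquat 2 was the highest of the 7 libraries for both, and paraquat 1 and 3 lay inside the TiO2 range. Without paraquat 2 the list median was −0.01. Slc17a6, the transporter gene of thalamic neurons, was at 57.6, 42.6 and 65.8 against 7.26, 29.5, 19.1 and 18.9 (1.64, 95% interval 0.35 to 2.93, limma adjusted p = 0.673), and Tcf7l2, a thalamic transcription factor gene, at 275 to 419 against 199 to 268 (0.43 ± 0.14, adjusted p = 0.642). Neither overlapped between the groups, while the list of subcortical glutamatergic genes as a whole had a median of 0.11 over 5 genes (−0.20 without paraquat 3). Their part in the other differences was not tested.

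Genes of striatal projection neurons had slightly lower estimates in paraquat. Of 16 general medium spiny neuron genes, 13 estimates were below 0, with a median of −0.11 and a range of −0.27 to 0.18. At an unadjusted p under 0.05, 4 were lower and none was higher, against 2.98% and 3.43% of all genes. The transcription factor gene Foxp2 was at 882 to 922 in paraquat and 983 to 1216 in TiO2 (−0.27 ± 0.09, limma adjusted p = 0.658). Foxp1 was at 5916 to 6562 against 6602 to 7956 (−0.23 ± 0.08), Bcl11b at 3271 to 3344 against 3371 to 4128 (−0.18 ± 0.08), and the G protein subunit gene Gng7 at 18049 to 21416 against 20767 to 25360 (−0.20 ± 0.08). Gng7 overlapped between the groups. Of all 16 genes, 4 lay below all TiO2 libraries, against 2.87% of all genes: Foxp2, Foxp1, Bcl11b and Pde10a. Pde10a was at 17957 to 19020 against 19197 to 21149 (−0.13 ± 0.07). The markers of the direct and indirect pathways had medians of −0.07 (10 genes) and −0.05 (8 genes) with none at an unadjusted p under 0.05, and interneuron genes −0.07 (11 genes).

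Dopamine genes showed no difference that this design could resolve. The list median was −0.13 over 11 genes, with 9 estimates below 0 and none at an unadjusted p under 0.05. Only Drd1 lay below all TiO2 libraries in all paraquat libraries (2.87% of all genes did). The D1 receptor gene Drd1 had a difference of −0.12 (95% interval −0.28 to 0.04) and the D2 receptor gene Drd2 of −0.13 (−0.32 to 0.06). Th, the rate-limiting enzyme of dopamine synthesis, was at 94.3, 61.9 and 88.9 against 91.3 to 107 (−0.26, −0.59 to 0.06). The dopamine transporter gene Slc6a3 was at 6.58 to 7.1 against 3.98 to 12.5. The inherited parkinsonism list had a median of 0.03 over 14 genes.

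The listed oxidative defence genes gave differences near 0 between the redox-cycling herbicide and the particle. Over 31 genes the median was −0.01. Only Gsr, the gene of glutathione reductase, had an unadjusted p under 0.05 (2.98% of all genes were lower in paraquat at that p). Gsr was at 327 to 369 in paraquat and 368 to 428 in TiO2 (−0.19, 95% interval −0.37 to −0.01, limma adjusted p = 0.761). The list does not hold Gpx6, the glutathione peroxidase gene described above (−0.50 ± 0.09), which was among the genes with the smallest p. The superoxide dismutase genes had differences of −0.07 (−0.28 to 0.13) for Sod1 and −0.04 (−0.22 to 0.14) for Sod2. Hmox1, the inducible haem oxygenase gene, was at 98.2, 77.1 and 135 against 94.3 to 116 (−0.07, −0.38 to 0.24), and Nqo1, a target of the factor NRF2, at 16.2 to 19.1 against 14.5 to 19.1 (0.10, −0.38 to 0.58). Intervals for Cat (−0.14 to 0.35), Gclc (−0.08 to 0.27) and Txnrd1 (−0.07 to 0.35) also held 0. The 12 genes of redox-cycling enzymes and carriers had a median of −0.14, with 10 estimates below 0. Their summed level was 3007 to 3807 in paraquat and 3392 to 3889 in TiO2, so the ranges overlapped. The organic cation transporter gene Slc22a3 was the only one at an unadjusted p under 0.05 (2.98% of all genes were lower at that p). It was at 85.2 to 109 against 106 to 153 (−0.46 ± 0.13, limma adjusted p = 0.506).

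Metal handling, cytokine and stress lists gave medians near 0, while interferon genes had lower estimates in paraquat. The metallothionein genes had differences of −0.06 (95% interval −0.34 to 0.23) for Mt1 and 0.14 (−0.38 to 0.65) for Mt2, and the metal and iron list had a median of 0.01 over 12 genes. Cytokine genes had a median of 0.04 over 10 genes, interferon and antigen presentation genes −0.13 over 17 (15 estimates below 0), integrated stress response genes 0.01 over 14 and heat shock genes 0.01 over 13, with none at an unadjusted p under 0.05 in any of these lists. The summed level of the interferon list was 2030 to 3274 in paraquat and 2201 to 3002 in TiO2, so the TiO2 range lay inside that of paraquat. Tsc22d3, which glucocorticoids induce, was at 384, 334 and 460 in paraquat and at 256, 325, 319 and 276 in TiO2 (0.41 ± 0.12, limma adjusted p = 0.514), without overlap, while the list of glucocorticoid-induced genes had a median of −0.02 over 15. Immediate early genes, switched on by neuronal activity, had a median of −0.10 over 19: Egr1 was at 3341 to 5502 against 4742 to 6061 (−0.35, −0.72 to 0.02), Fosl2 at 181 to 217 against 210 to 338 (−0.35, −0.62 to −0.08), and Btg2 at 87.3 to 94.2 against 51.9 to 85.5 (0.50, 0.13 to 0.87).

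Among transmitter receptors and wiring genes the members differed in direction. The GABA-A receptor list had a median of 0.04 over 14 genes. At an unadjusted p under 0.05, 3 were higher in paraquat, against 3.43% of all genes, Gabrq and Gabra3 among them. Gabrq, the theta subunit gene, was at 71.5, 26.4 and 74.4 against 21.8, 33.6, 17.1 and 23.9 (1.12 ± 0.30, limma adjusted p = 0.417), so that paraquat 2 lay inside the TiO2 range. Grm2, a presynaptic metabotropic glutamate receptor gene, was at 26.8, 71 and 28.3 against 13.5, 17.3, 22.1 and 7.96 (1.35 ± 0.36, adjusted p = 0.417), with paraquat 2 the highest library. Axon guidance had 8 of 35 genes higher and 3 lower at an unadjusted p under 0.05, against 3.43% and 2.98% of all genes. Its median was 0.12, and 0.06 without paraquat 2. On the higher side, the netrin receptor gene Unc5d was at 187 to 198 against 119 to 154 (0.53 ± 0.14, adjusted p = 0.408) and the semaphorin co-receptor gene Nrp2 at 105 to 171 against 84 to 106 (0.55 ± 0.16, adjusted p = 0.456). On the lower side, the Slit receptor gene Robo2 was at 1708 to 1815 against 1929 to 2244 (−0.27 ± 0.07, adjusted p = 0.417), while the ligand gene Slit2 was at 157 to 178 against 113 to 145 (0.38 ± 0.13). Sema7a and Epha4 had differences of −0.24 and −0.15, without overlap between the groups.

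**Figure D4:**
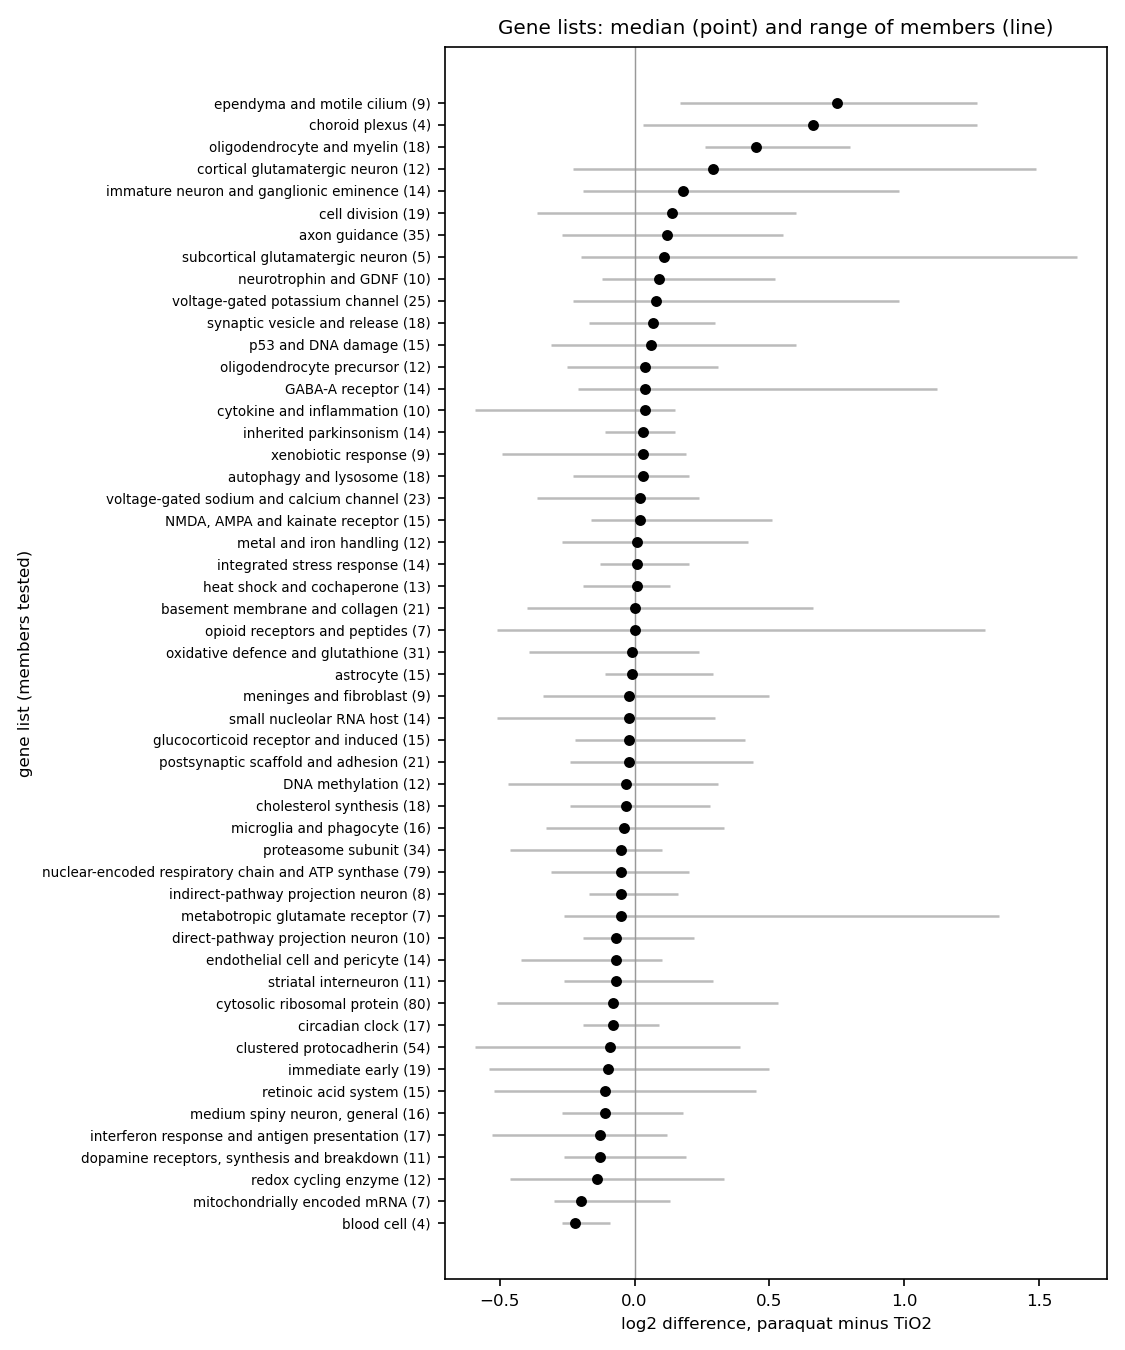
Median (point) and range (line) of the log2 difference of paraquat minus TiO2 over the tested members of each gene list, with the number of members in brackets. The lists of ependyma and motile cilium (median 0.75), choroid plexus (0.66) and myelin (0.45) lie farthest to the right, and 45 of 54 lists, the 2 chosen by earlier results (not drawn) counted among the 54, had a median within 0.15 of 0. The choroid plexus median is that of 4 genes with estimates of 0.03, 0.09, 1.23 and 1.27.

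Across the 54 lists, none held a gene that passed the adjusted threshold. Medians of the large families were −0.08 for 80 cytosolic ribosomal protein genes, −0.05 for 79 nuclear-encoded respiratory chain genes, −0.05 for 34 proteasome subunits and −0.09 for 54 clustered protocadherins. Mitochondrially encoded mRNAs had a median of −0.20 over 7, with 6 estimates below 0 and mt-Nd6 at 0.13. At an unadjusted p under 0.05, 3 were lower in paraquat, against 2.98% of all genes: mt-Nd1, mt-Nd5 and mt-Cytb. Of these, mt-Nd1 was at 288928 to 390834 against 312662 to 448458 (−0.24, 95% interval −0.45 to −0.02). Quantile normalisation brought that list to −0.01 and mt-Nd1 to 0.00.

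A last set holds genes that earlier results of these data had shown to differ from control under an exposure, 15 higher and 14 lower. They were chosen with these libraries, so their values are a description. The interval held 0 for 10 of the 15 higher genes. Over all genes tested it did not hold 0 for 6.41%, the share with an unadjusted p under 0.05. Klhl11 was at 162, 148 and 189 in paraquat and at 184, 174, 173 and 184 in TiO2, with a control mean of 45.8 (−0.11, 95% interval −0.53 to 0.32). Kcna3, a Shaker potassium channel gene, was at 47.7 to 69.5 against 64.6 to 75.7, with a control mean of 15 (−0.23, −0.83 to 0.37). Cyp26b1, the retinoic acid hydroxylase gene, was at 41.7, 57.8 and 87.6 against 25.9, 51.9, 54.2 and 48.7, with a control mean of 10.6 (0.45, −0.28 to 1.17). Rab3a, a synaptic vesicle GTPase gene, had the narrowest interval of the set (0.02, −0.16 to 0.20).

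Genes of that set whose interval did not hold 0 lay on both sides. Xkr4 was at 218, 200 and 313 in paraquat and at 341, 293, 332 and 337 in TiO2, with a control mean of 77.3 (−0.44, 95% interval −0.78 to −0.10), and Oprm1, the mu opioid receptor gene, was at 67.5, 54.8 and 88.9 against 103, 88.5, 104 and 100, with a control mean of 24.6 (−0.51 ± 0.23). Paraquat 3 lay inside the TiO2 range for both. Slc17a6 (1.64), Grm2 (1.35) and Nrn1 (1.49, 0.41 to 2.57) were higher in paraquat. Nrn1, the neuritin gene, was at 46.6, 242 and 69.1 against 17.6, 31.5, 46.2 and 41.8, with paraquat 2 far above the rest and paraquat 1 just above TiO2 3.

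In the set chosen as lower than control, the interval held 0 for 7 of 14 genes, and Bbox1 and Spata1 had the smallest p. Of all genes tested, 6.41% had an interval that did not hold 0. Bbox1, the last enzyme gene of carnitine synthesis, was at 18.9, 20.3 and 11.2 in paraquat and at 4.15, 8.13, 1 and 5.97 in TiO2, with a control mean of 13.9 (1.77 ± 0.41, 95% interval 0.92 to 2.62, limma adjusted p = 0.208). Its TiO2 values are a few reads per library. Spata1 was at 16.9, 14.2 and 19.8 against 30.1, 37.6, 24.1 and 39.8, with a control mean of 33.7 (−0.90 ± 0.21, −1.33 to −0.48, adjusted p = 0.208). It overlaps Ctbs on the opposite strand, whose difference was 0.00, and use of strand in counting is not given in the sources used here. The noncoding host RNA Snhg6 was at 66.5, 79.1 and 58.6 against 103, 108, 75.3 and 104, with a control mean of 125 (−0.51, −0.85 to −0.17). Col4a4, a basement membrane collagen gene, lay above TiO2 (0.66, 0.03 to 1.28), and Calhm6 (−0.70, −1.29 to −0.11) and Cytip (−0.55, −1.06 to −0.04) below it, all at low counts. Trim34a (−0.86 to 0.47), Mir17hg (−0.66 to 0.34) and Rpl5 (−0.44 to 0.03) had intervals that held 0.

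**Figure D5:**
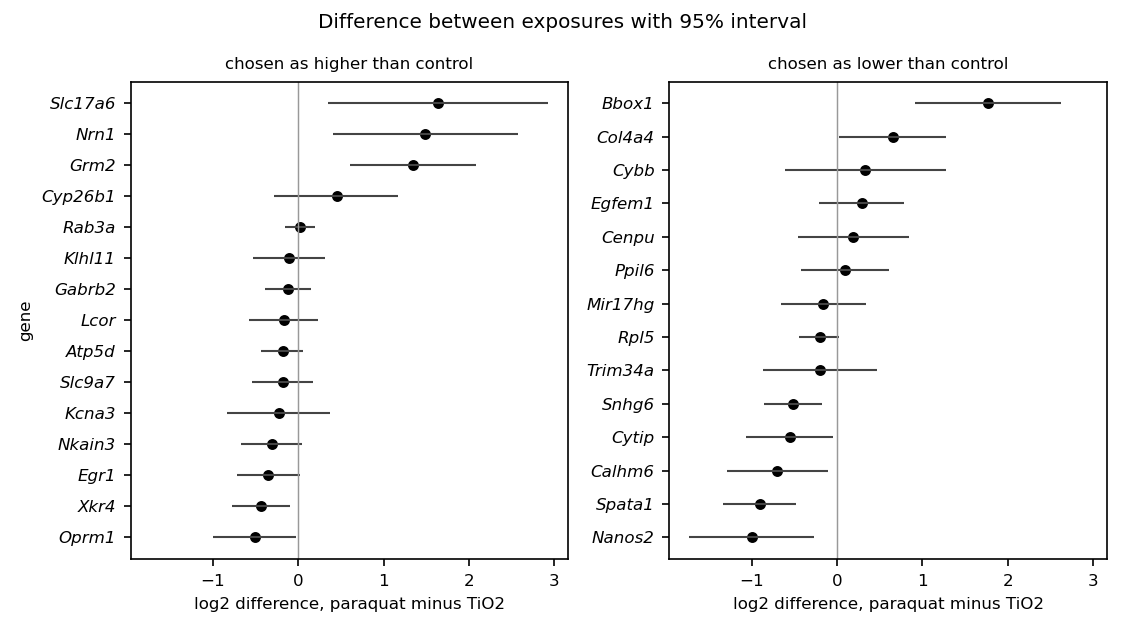
Log2 difference of paraquat minus TiO2 (horizontal axis, point) with its 95% interval (line) for genes chosen from earlier results as higher (left) or lower (right) than control under an exposure. The interval holds 0 for 10 of the 15 genes on the left and 7 of the 14 on the right, where Bbox1 (0.92 to 2.62) and Spata1 (−1.33 to −0.48) lie clear of it. For 6.41% of all genes tested the interval does not hold 0.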

How the data were processed

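The authors deposited 1 table of 15569 genes in 15 libraries. Its deposited values are a normalised signal: in each library every value is a whole multiple, within 0.001, of 1 step, as read counts divided by a size factor give. Reads were recovered by dividing by that step. In 4 libraries, among them paraquat 1, TiO2 3 and TiO2 4, the step is so near 1 that recovery is claimed for the other 11 only, so depths and count tests that use all 15 carry this doubt. Per the labels' protocols, RNA came from a NucleoSpin kit and libraries from a SENSE total RNA kit, sequenced on a NextSeq500. The genome build mm10 and the tools DESeq2 2.1.8.3 and Bowtie2 2.3.2.2 appear in the submitters' processing notes. Which counter, annotation, strand setting and gene filter were used is not given in the sources used here. Coordinates and transcript GC content come from GENCODE M21 on GRCm38, where all 15569 symbols had an entry.

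The test was limma 3.58.1 (R 4.3.3, trend and robust) on log2(value + 1), with all 15 libraries in 1 fit and the contrast paraquat minus TiO2. The filterByExpr function of edgeR 4.0.16 dropped 13 genes. Benjamini-Hochberg adjustment ran over 15556 genes with a threshold of 0.05. Adding 1 understates differences of low genes. Named are the 10 smallest p in each direction at a mean of at least 10, the 12 list members with the smallest p, a fixed set of genes, and members on which a sentence about a list turns. The members and lists were chosen with earlier results of these data known. DESeq2 1.42.0, edgeR and voom on recovered reads, other pseudocounts, filters and scalings, and leaving out each library were alternatives. The code was tested on simulated data. No column was left out. Some genes that this rule names are not reported here. Read depth covers counting error only. No library was a copy of another (chi-square 3.02 to 25.1 for each degree of freedom within a group), and each counted as 1 sample.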

Additional observations from a re-analysis of the deposited data

Results flagged for a closer look

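In groups of 4, a library was singled out where its gap to the nearest other took most of the group's range (Dixon's criterion). Of 465 groups of values checked, 27 were singled out, and chance alone does so in about 1 in 20. Among the TiO2 libraries, TiO2 1 stood apart for Tekt1 (10.4), Tcf7l2 (199) and Dnah3 (11.4), and TiO2 2 for Crh (37.6). TiO2 3 stood apart for Cacna2d3 (1618), Snhg6 (75.3), Nexn (182) and Baiap3 (116), and TiO2 4 for Odf3b (2.98). The paraquat group of 3 is too small for the criterion.

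In the controls, which do not enter the contrast, control 1 stood apart for Cyp26b1 (16.6), Kcna3 (30), Klhl11 (78.7) and Dnah10 (28). Control 2 stood apart for Ppil6 (27.9), Gfap (395), Sod1 (657), Txnrd1 (384), Foxp2 (960) and Odf3b (2.06), and control 4 for Ttr (73.7). In the mixture, the library apart was mixture 1 for Kcnc2 (232), mixture 2 for Frmpd3 (169), Slc6a3 (2.17) and Hmox1 (79.2), mixture 3 for Farp1 (298) and mixture 4 for Myo3b (345) and Egr1 (3320).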

How the results depend on the processing

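The count of 0 called genes was kept in 17 of 22 alternatives. DESeq2 called 15 genes (10 higher and 5 lower in paraquat). Leaving out 1 library gave 0 to 11 calls, 0 to 4 higher and 0 to 7 lower: 11 without TiO2 3, among them B930095G15Rik, Gpx6, Osbpl3 and Rgs2, 2 without paraquat 2 (Gabrq and Hap1) and 0 without any other library. Genes at an unadjusted p under 0.05 then numbered 680 to 1680, 372 to 872 higher and 269 to 808 lower. Of these, 1680 came without TiO2 3, 1426 without paraquat 3 (781 lower, a share higher of 45.2% against 53.6%), 695 without paraquat 1 (269 lower) and 680 without TiO2 1 (308 lower). The cause was not tested. Replicate numbers did not pair the libraries (r of same-numbered deviations −0.002, 0.122 and −0.098, and not every library correlated best with its own number). A replicate block gave 3 calls (2 higher, B930095G15Rik and Kcnc2, and 1 lower, Osbpl3), and with a GC trend removed 4 (2 higher and 2 lower). The difference in GC correlation between the groups (0.0697) was −0.0153 without TiO2 4 and ran from there to 0.172 over the libraries left out, and mt-Nd1 was 0.00 under quantile normalisation. The myelin median ran from 0.38 to 0.56. Depth limits the cilium genes and Bbox1, which rest on few reads.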

Other observations

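Paraquat 1 and 3 shared high values of a few genes that paraquat 2 lacked, in a set chosen after its values were seen. Hap1, which encodes a partner of huntingtin, was at 689 and 660 in paraquat 1 and 3, at 394 in paraquat 2 and at 377 to 435 in TiO2. Baiap3 was at 168 and 130 in the same libraries, at 74.1 in paraquat 2 and at 76.6 to 116 in TiO2. The GABA-A epsilon subunit gene Gabre was at 29.8 and 34.9 against 10.1 and 8.03 to 13.9, and the prolactin receptor gene Prlr at 51.6 and 42.8 against 11.2 and 10.4 to 13.9. The theta subunit gene Gabrq had this order too. Paraquat 2 was instead the library with the highest Slc17a7 (2703) and Tbr1 (1161), and it also differs from the other 2 in Xist. Control means were 403 for Hap1, 80 for Baiap3, 12.2 for Gabre and 10.8 for Prlr.

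Cilium genes outside the list, also chosen after their values were seen, had higher means in paraquat than in TiO2. Odf3b was at 35.7, 18.3 and 22.4 in paraquat and at 10.4, 10.2, 10 and 2.98 in TiO2. The axonemal dynein gene Dnah3 was at 26.8, 27.4 and 11.2 against 11.4, 5.08, 5.02 and 4.97, so that paraquat 3 met the TiO2 range. Cfap126 was at 32.7, 15.2 and 23 against 11.4, 17.3, 6.02 and 5.97, with paraquat 2 inside the TiO2 range. Control means of 12.6 for Odf3b, 14 for Dnah3 and 18.5 for Cfap126 lay between the means of both exposures.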
